A study of Mus musculus with 27 samples.

Results

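Magnetic beads that carry an antibody against alkaline phosphatase (AP) were used to pull AP-positive retinal ganglion cells (RGCs) out of dissociated retinas of C57Bl/6 mice, and the question here is how the RNA of the cells without Brn3b changed from embryonic day 15 (E15) to postnatal day 3 (P3). The cells described carry the genotype Brn3b AP/KO (KO): the AP reporter takes the place of Brn3b on 1 allele and the second allele is null. The labels name no Cre driver or promoter for the reporter. The comparison rests on 4 of the series' 27 libraries, KO P3 against KO E15 with 2 libraries at each age, chosen by title. Beside them stand 2 E15 and 2 P3 libraries of AP-positive cells from Brn3b AP/WT retinas (HET), in which the second allele is intact, so the AP allele is common to both genotypes. The other kind of library is the supernatant (SN), the retinal cells that did not bind the beads: at E15 there was 1 KO and 1 HET supernatant, and at P3 there were 4, 1 each of Brn3a AP/KO, Brn3a AP/WT, Brn3b AP/KO and Brn3b AP/WT. The 4 libraries of Brn3a AP-positive cells at P3 entered the fit only to estimate the spread, and for 1 of them, labelled Brn3a KO by title, the genotype entry names Brn3b. The source entries of the Brn3b libraries all name Brn3a and P3, so groups were taken from titles, with which genotype and age entries match for all 8 Brn3b AP-positive libraries. No label says whether the 2 libraries of a group came from separate animals or litters, so p-values measure only the spread between these libraries, which may be technical.

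RGCs are the output neurons of the retina: they are born early, send their axons through the optic nerve and use glutamate as transmitter. Brn3b (gene symbol Pou4f2) is a POU-domain transcription factor that newly made RGCs switch on downstream of Atoh7, and in its absence many RGCs are lost and the axons of others grow abnormally. Between late embryonic and early postnatal life the mouse retina stops making RGCs, turns to rods, bipolar cells and Mueller glia, and its neurons go from axon growth to synapse formation.

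Sequencing gave between 32835889 and 36769807 estimated counts in the 4 KO libraries. Levels are in CPM (counts scaled to a library's total) after TMM normalization. A gene was called at a Benjamini-Hochberg adjusted p under 0.05 in edgeR's quasi-likelihood test, fold changes are log2 of P3 over E15, and each ± is a standard error with 2 libraries per group. The RGC label was checked against the RNA in both fractions. The summed level of 18 RGC markers was 9688 and 8393 CPM in KO E15 and 2070.1 and 2382 CPM in KO P3, against 3032 to 4414 CPM in E15 and 1043 to 1847 CPM in P3 supernatant. The sum includes highly expressed general neuronal and axonal genes such as Tubb3, Stmn2 and Cntn2, so it is a weak check of the label. The RNA-binding protein Rbpms, a pan-RGC marker, stood at 85.4 and 39.4 CPM in KO E15, overlapping the 89.0 and 81.3 CPM of the E15 supernatants, and at 69.0 and 89.6 CPM in KO P3, above the P3 supernatants at 24.4 to 62.7 CPM. The HET cells had more of it at both ages, 333 and 183 and then 218 and 353 CPM. The glutamate transporter gene Slc17a6 was lower in both KO E15 libraries than in either E15 supernatant. At P3 it was higher in both KO libraries than in every supernatant. Genes of microglia and macrophages were also found on the beads: their sum was 1210.0 and 1376 CPM in KO E15 and 2329 and 1859 CPM in KO P3, but 24.0 to 26.4 CPM in the E15 and 19.7 to 53.9 CPM in the P3 supernatants. These are bulk libraries, in which fewer cells of a type and less RNA per cell cannot be told apart.

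The Brn3 genes themselves were read first. Pou4f2 stood at 65.7 and 63.1 CPM in KO E15 and 21.0 and 18.6 CPM in KO P3, a fall of log2 -1.68 ± 0.26 (adjusted p = 0.0015). Every HET library was higher, with 325 and 224 CPM at E15 and 190.5 and 289 CPM at P3, and the HET levels overlapped between ages. The reads left in KO libraries are not assigned to a part of the gene here. Pou4f1 (Brn3a), the POU factor shared by many RGC types, measured 73.6 and 35.6 CPM in KO E15 and 61.7 and 88.2 CPM in KO P3, so the ages overlapped (log2 0.48 ± 0.47, adjusted p = 0.508). Pou4f3 (Brn3c), found in a small set of RGC types, went from 0.761 and 0.519 to 3.35 and 7.28 CPM (log2 3.07 ± 0.76, adjusted p = 0.0157). That last call was lost when KO P3 library 2, KO E15 library 1 or KO E15 library 2 was left out, with adjusted p of 0.0835, 0.0705 and 0.101.

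Of 16673 genes tested, 2394 (14.4%) were higher and 1846 (11.1%) lower in KO P3 than in KO E15. The median log2 change over all of them was 0.03. Leaving out 1 library gave 1455 and 937 without KO P3 library 1, 1651 and 1145 without KO P3 library 2, 1365 and 937 without KO E15 library 1, and 1269 and 1082 without KO E15 library 2. Without ranking on a test, both libraries of P3 lay above both of E15 for 33.9% of genes and below for 32.8%. The 15 largest rises among called genes included the photoreceptor genes Pde6b, Nr2e3, Cngb1, Cnga1 and Opn1sw. The 15 largest falls were led by Th and Acvr1c and included the transcription factor genes Sp8, Atoh7, Dlx1 and Dlx2, the guidance and adhesion genes Ntn1 and Cntn2, and the neuropeptide genes Gal and Sst. Th encodes tyrosine hydroxylase, the rate-limiting enzyme of dopamine synthesis, and read 281 and 253 CPM in KO E15 against 0.947 and 1.34 CPM in KO P3 (log2 -7.84 ± 0.24, adjusted p = 2.26e-07). Acvr1c, which encodes an activin and nodal receptor kinase, went from 66.5 and 70.5 to 0.406 and 0.237 CPM (log2 -7.70 ± 0.38, adjusted p = 7.01e-06). Sp8, a zinc finger factor, went from 66.9 and 57.0 to 0.649 and 0.132 CPM (log2 -7.28 ± 0.60, adjusted p = 1.37e-04). In each of the 3 genes the 2 KO E15 libraries lay close together and far above both KO P3 libraries.

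**Figure D1:**
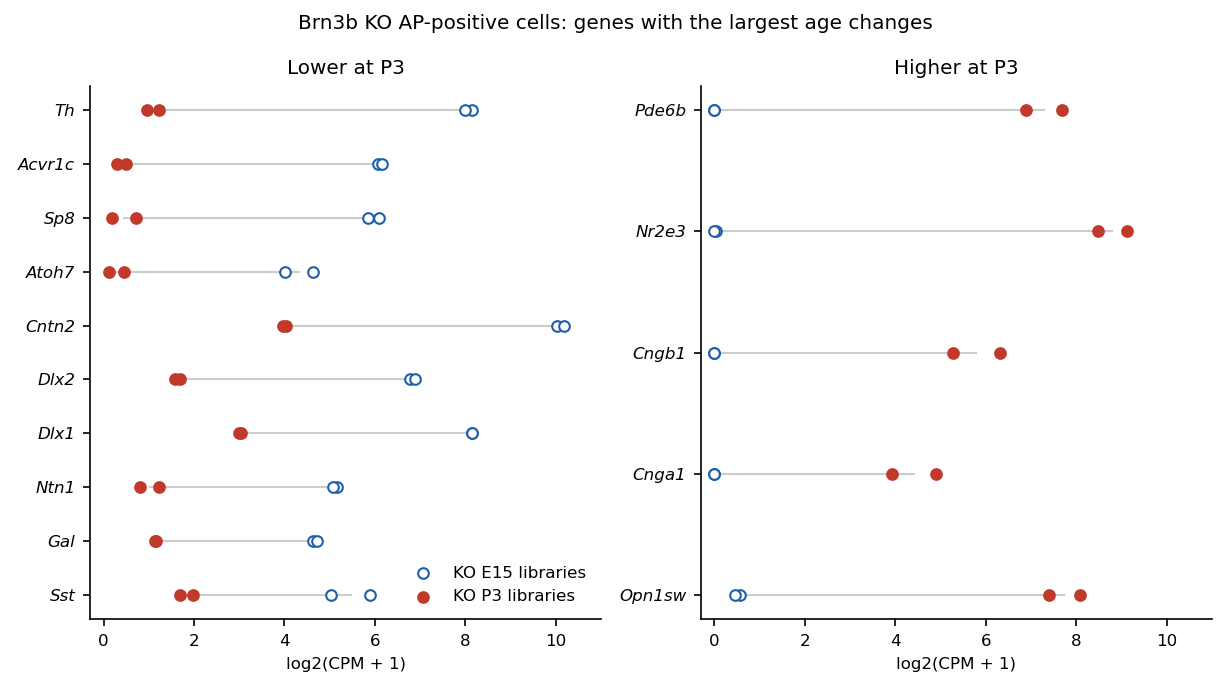
Level in each KO library of genes described in the text that are among the 15 largest falls (left) and the 15 largest rises (right) of called genes, on a log2(CPM + 1) axis. Open circles are the 2 E15 libraries, filled circles the 2 P3 libraries, and the grey line joins their means. For every gene drawn the ages do not overlap, as the rule of choice required.

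Of 18 RGC markers tested 3 rose and 10 fell, with a median log2 change of -1.48, against 14.4% rising and 11.1% falling over all genes. Isl1, a LIM homeodomain factor that works beside Brn3b in RGC differentiation, dropped from 485 and 401 to 31.2 and 49.0 CPM (log2 -3.45 ± 0.36, adjusted p = 2.65e-04). Cntn2, an axonal adhesion molecule of outgrowing fibres, dropped from 1046 and 1152 to 14.6 and 15.4 CPM (log2 -6.18 ± 0.33, adjusted p = 8.45e-06). Both genes had no overlap between ages. Without KO E15 library 1, 6 of the 18 rose and 9 fell. Slc17a6, the vesicular glutamate transporter of RGCs, rose from 13.0 and 6.78 to 40.8 and 58.8 CPM (log2 2.35 ± 0.38, adjusted p = 0.00199). Thy1, a surface glycoprotein of maturing RGCs, rose from 0.919 and 0.275 to 47.4 and 68.5 CPM (log2 6.62 ± 0.65, adjusted p = 1.91e-04). Levels of the neurofilament light chain gene Nefl (461 and 319 against 229 and 330.0 CPM, adjusted p = 0.331) and of the synuclein gene Sncg (44.8 and 18.9 against 48.2 and 68.3 CPM, adjusted p = 0.149) overlapped between ages.

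Among 28 genes of the axonal cytoskeleton 2 rose and 20 fell (median log2 -1.31), beside 14.4% and 11.1% over all genes. This list shares genes with the RGC markers, among them Tubb3 and Stmn2, so the counts of these lists are not independent. Tubb3, the neuronal beta tubulin, stood at 2614 and 2393 CPM in KO E15 and 416 and 369 CPM in KO P3 (log2 -2.65 ± 0.33, adjusted p = 5.33e-04). Stmn2, a tubulin-binding protein of growth cones, stood at 1574 and 1328 and then 302 and 344 CPM (log2 -2.15 ± 0.29, adjusted p = 8.23e-04). Gap43, the growth-associated protein, stood at 911 and 734 and then 149 and 177 CPM (log2 -2.32 ± 0.32, adjusted p = 8.80e-04). All 3 were lower in both P3 libraries than in either E15 library. Dcx, the doublecortin of migrating neurons, and Ina, an early neurofilament, changed by log2 -2.39 ± 0.34 and -2.40 ± 0.31 (adjusted p = 0.00102 and 6.88e-04). The gene that went the other way most clearly was Tuba4a, an alpha tubulin of mature neurons, from 1.46 and 1.10 to 6.28 and 7.38 CPM (log2 2.43 ± 0.30, adjusted p = 5.42e-04). In HET cells 2 of the same 28 genes rose and 8 fell (median log2 -0.46), against 16.6% rising and 12.3% falling over all genes, and those 8 became 2 without HET P3 library 1, 4 without HET E15 library 1 and 12 without HET E15 library 2. The change differed between genotypes past the threshold for none of the 28 in edgeR (0.006% higher and 0.186% lower over all genes), with 13 lower in KO at an unadjusted p under 0.05, and for 1 in DESeq2.

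**Figure D2:**
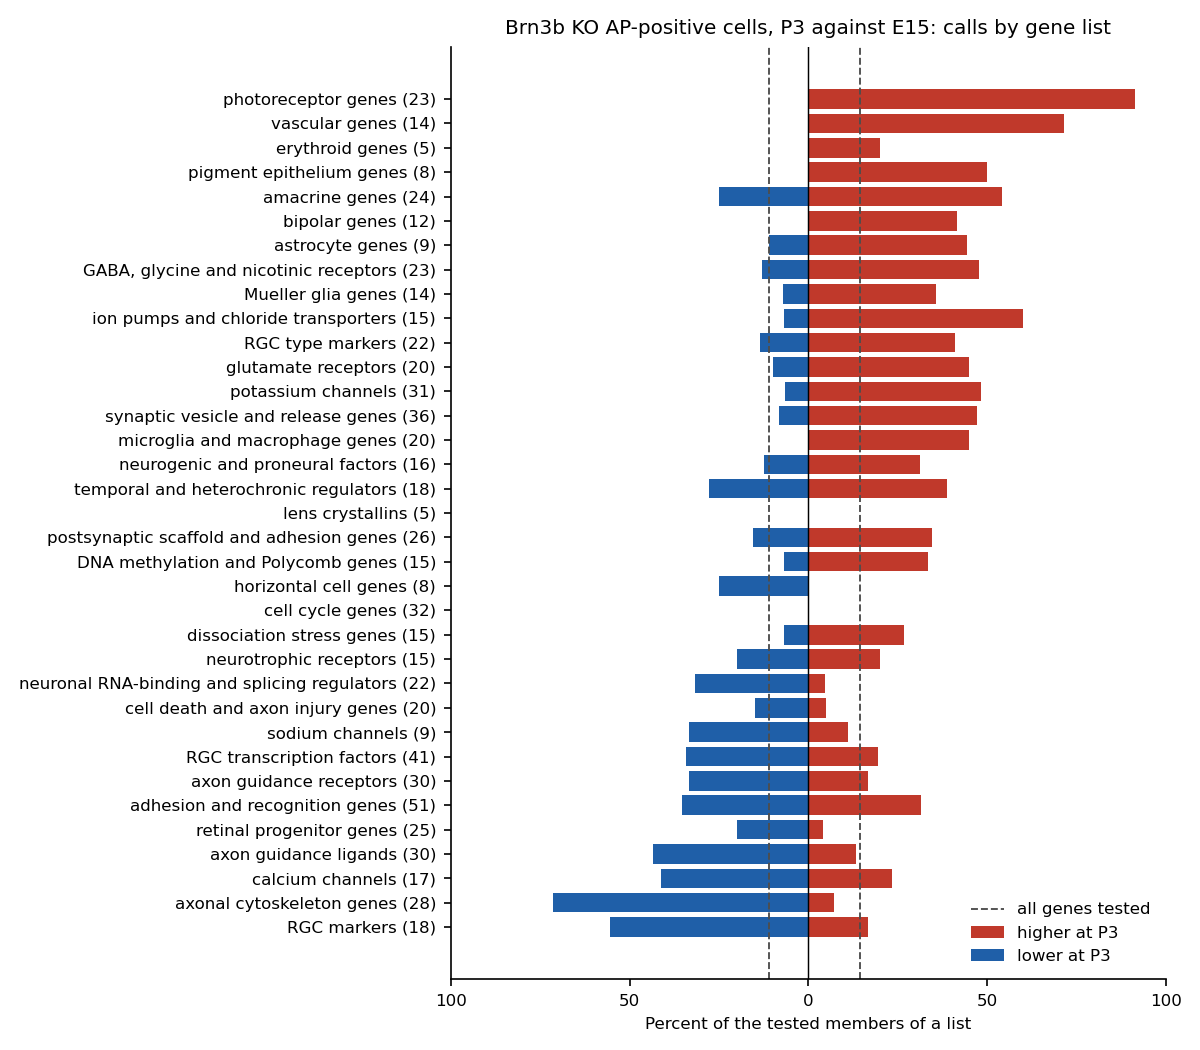
Percent of the tested members of each of 35 gene lists that were higher (right) or lower (left) in KO P3 than in KO E15, with the number tested in brackets and the lists ordered by median change. Dashed lines mark the 14.4% higher and 11.1% lower over all genes. Photoreceptor genes stand at 21 of 23 higher and axonal cytoskeleton genes at 20 of 28 lower.

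Of 41 transcription factors linked to RGCs 8 rose and 14 fell (median log2 -0.13), and the 8 became 5 without KO P3 library 1, 4 without KO P3 library 2 and 4 without KO E15 library 2. The shares over all genes were 14.4% higher and 11.1% lower. Klf7, a Krüppel-like factor of growing axons, fell from 728 and 671 to 117 and 115 CPM (log2 -2.57 ± 0.26, adjusted p = 2.05e-04). Onecut2, shared by RGCs and horizontal cells, fell from 251 and 221 to 36.6 and 42.6 CPM (log2 -2.55 ± 0.34, adjusted p = 7.31e-04), and Sox11, of immature neurons, from 814 and 893 to 218 and 237 CPM (log2 -1.89 ± 0.17, adjusted p = 1.37e-04). Tbr1, a T-box factor of certain RGC types, rose from 0.856 and 0.336 to 4.52 and 7.07 CPM (log2 3.30 ± 0.43, adjusted p = 6.60e-04), still below the 24.7 and 39.3 CPM of HET P3. Isl2, which marks many contralaterally projecting RGCs, read 2.82 and 0.733 CPM at E15 and 5.44 and 5.06 CPM at P3, with no overlap between ages. It missed the threshold (adjusted p = 0.13) but passed it in DESeq2 (0.0427) and with the replicate number as a block (0.0278). Of 22 markers of RGC types 9 rose and 3 fell (median log2 0.91), and the 3 became 1 without KO P3 library 1, KO P3 library 2 or KO E15 library 1. Opn4, the melanopsin of intrinsically photosensitive RGCs, rose from 1.52 and 0.183 to 7.52 and 8.25 CPM (log2 3.23 ± 0.65, adjusted p = 0.006), while HET cells already had 14.8 and 11.6 CPM at E15 and had 21.1 and 27.5 CPM at P3. The Opn4 call became adjusted p = 0.0506 when only the groups compared were fitted. Spp1, the osteopontin of alpha RGCs that microglia also make, rose from 5.29 and 3.21 to 72.9 and 51.3 CPM (log2 3.89 ± 0.39, adjusted p = 2.05e-04), and all supernatants held at most 0.368 CPM. Adcyap1, the neuropeptide PACAP of photosensitive RGCs, fell from 44.1 and 46.9 to 3.11 and 5.22 CPM (log2 -3.43 ± 0.31, adjusted p = 1.27e-04).

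Genes of amacrine cells, the inhibitory interneurons of the inner retina, changed in both directions. Their sum was 1299 and 1075 CPM in KO E15 and 1905 and 1815 CPM in KO P3. HET cells held 420.0 and 356 CPM at E15 and 1525 and 1794 CPM at P3. The supernatants held 641 to 741 CPM at E15 and 1772 to 2177 CPM at P3, a range that includes both KO P3 values. Of the 24 genes tested 13 rose and 6 fell in KO (median log2 1.72), beside 14.4% and 11.1% over all genes. Left out in turn, KO P3 library 1 and KO E15 library 1 each left 4 of them lower. Those that fell were led, by adjusted p, by Th and Gad2. The homeodomain genes Dlx1 and Dlx2, which are switched on in newborn inhibitory neurons, were counted with the RGC transcription factors and fell as well. Dlx1 dropped from 280.3 and 282 to 6.95 and 7.20 CPM (log2 -5.29 ± 0.16, adjusted p = 2.26e-07). Dlx2 dropped from 108 and 117 to 2.22 and 2.00 CPM (log2 -5.71 ± 0.33, adjusted p = 1.49e-05). Gad2, one of the enzymes that make GABA, dropped from 302 and 313 to 70.2 and 65.0 CPM (log2 -2.17 ± 0.15, adjusted p = 4.81e-05). All 3 had both KO E15 libraries above every other AP-positive Brn3b library. The other GABA-making enzyme went up: Gad1 measured 4.25 and 1.99 CPM in KO E15 and 44.5 and 66.5 CPM in KO P3 (log2 4.17 ± 0.62, adjusted p = 0.00131). Tfap2b, an AP-2 factor of amacrine cells, rose from 120.4 and 54.9 to 497 and 423 CPM (log2 2.41 ± 0.45, adjusted p = 0.00423), and the homeodomain gene Meis2 from 73.3 and 60.6 to 322 and 265 CPM (log2 2.15 ± 0.21, adjusted p = 1.88e-04). Amacrine genes also rose in the cells that did not bind the beads, where 13 of 24 were higher and 3 lower at P3 (15.6% and 17.5% over all genes), and the part of carried-over amacrine cells in the KO values was not tested. Gal and Sst, which encode the neuropeptides galanin and somatostatin, also fell, by log2 -4.31 ± 0.28 and -4.11 ± 0.72 (adjusted p = 3.28e-05 and 0.00296).

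Photoreceptor genes gave the largest rises. Of 23 tested 21 rose and none fell in edgeR (0 lower at an unadjusted p under 0.05, and 0 in DESeq2), beside 14.4% and 11.1% over all genes. The median log2 change was 7.23. The 3 genes without a count in KO E15 lie above it even at their lower bounds, so using those bounds could not move the median. The summed level of the photoreceptor genes was 354 and 329.8 CPM in KO E15 and 7999.8 and 5118 CPM in KO P3. The rise was not limited to the KO cells: 20 of 23 rose in HET cells (median log2 6.65) and 20 in the supernatant, where the sum was 859 to 936 CPM at E15 and 3891 to 5405 CPM at P3. The photoreceptor sum was higher in KO P3 library 1 than in library 2, and the HET P3 libraries held 6873 and 4453 CPM. The contribution of carried-over photoreceptors to these values was not tested. Crx, the homeodomain factor of photoreceptors that binds the letters TAATCC, rose from 81.1 and 71.5 to 1301 and 935 CPM (log2 3.89 ± 0.57, adjusted p = 0.00114). Nr2e3, a nuclear receptor of rods, had 1 count in the KO E15 libraries together and 557 and 354 CPM in KO P3, a ratio of 29212 (95% counting interval 5243 to 1153800). Pde6b, a subunit of the rod phosphodiesterase, had none in KO E15 and 203 and 118 CPM in KO P3, at least 3429-fold higher when 3 counts are allowed over the E15 group. On the same basis Cngb1 and Cnga1, the subunits of the rod cyclic nucleotide-gated channel, were at least 1236-fold and 461-fold higher. Sag, which encodes rod arrestin, rose from 1.90 and 2.29 to 532 and 376 CPM (log2 7.78 ± 0.85, adjusted p = 3.21e-04). The cone opsin gene Opn1sw rose from 0.476 and 0.367 to 270.5 and 167 CPM (log2 9.03 ± 0.83, adjusted p = 1.37e-04).

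The 250 bases upstream of the RefSeq start were searched for TAATCC or its complement GGATTA, on both strands at once since each is the other's reverse complement. Of the 21 photoreceptor genes that rose 17 had such a window and 5 (29.4%) held the letters, against 1721 of 27025 windows (6.37%) over all genes. The 3 shown, Crx, Cnga1 and Sag, are genes that rose and hold a match, chosen after the matches were seen, and capitals mark the match. They are RefSeq sequences of GRCm38.p6, printed 5′ to 3′ on the gene's strand: Crx lies at chr7:15879956-15880205 (minus strand), Cnga1 at chr5:72642753-72643002 (minus strand) and Sag at chr1:87803430-87803679 (plus strand). A match describes letters only.
Crx: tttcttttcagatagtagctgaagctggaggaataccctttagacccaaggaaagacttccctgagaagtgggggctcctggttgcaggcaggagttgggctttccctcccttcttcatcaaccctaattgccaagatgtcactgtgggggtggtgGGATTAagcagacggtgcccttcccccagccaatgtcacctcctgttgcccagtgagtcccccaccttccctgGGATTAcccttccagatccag
Cnga1: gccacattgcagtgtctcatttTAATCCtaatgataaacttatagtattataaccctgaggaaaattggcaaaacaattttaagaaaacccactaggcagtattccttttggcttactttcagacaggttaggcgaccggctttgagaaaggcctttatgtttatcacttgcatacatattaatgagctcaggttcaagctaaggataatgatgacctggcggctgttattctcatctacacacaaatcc
Sag: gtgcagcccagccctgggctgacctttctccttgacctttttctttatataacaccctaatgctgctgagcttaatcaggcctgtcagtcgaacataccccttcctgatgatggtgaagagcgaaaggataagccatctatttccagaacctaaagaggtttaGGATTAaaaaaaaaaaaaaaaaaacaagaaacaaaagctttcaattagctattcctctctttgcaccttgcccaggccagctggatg

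The Crx window holds 2 matches and the other two 1 each. Neurod1 and Neurod4, proneural basic helix-loop-helix factors that continue in photoreceptor and bipolar precursors, rose with these genes. Neurod1 went from 129.7 and 125 to 1401 and 943 CPM (log2 3.22 ± 0.48, adjusted p = 0.00131), and Neurod4 from 70.2 and 68.8 to 1626 and 1224 CPM (log2 4.38 ± 0.54, adjusted p = 5.14e-04). Atoh7, the proneural factor that starts RGC formation, fell from 15.2 and 23.9 to 0.0811 and 0.369 CPM (log2 -6.40 ± 0.71, adjusted p = 4.73e-04). Neurog2, another proneural factor, was at 25.0 and 31.9 and then 26.4 and 33.8 CPM and did not pass the test (adjusted p = 0.886). In all, 5 of 16 neurogenic and proneural factors rose and 2 fell, beside 14.4% and 11.1% over all genes. Of 12 bipolar cell genes 5 rose and none fell (2 rose without KO P3 library 1, and 3 without either KO E15 library), with 0 lower at an unadjusted p under 0.05 and 0 in DESeq2. Among them Prkca, the protein kinase of rod bipolar cells, rose from 15.1 and 14.7 to 68.6 and 56.8 CPM (log2 2.10 ± 0.18, adjusted p = 1.24e-04).

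Proliferation genes did not pass the test in the KO comparison in either direction. None of 32 cell cycle genes was called in edgeR (median log2 0.09), with 0 higher and 1 lower at an unadjusted p under 0.05 and none called in DESeq2. In HET cells 17 of 32 fell (median log2 -1.47), beside 12.3% over all genes, and in the supernatant 12 fell, beside 17.5%. For none did the KO change differ from the HET change past the threshold in edgeR or DESeq2, and 17 were higher in KO at an unadjusted p under 0.05 in edgeR. Mki67, the proliferation antigen Ki-67, was 149.9 and 286 CPM in KO E15 and 154 and 441 CPM in KO P3 (log2 0.46 ± 0.53, adjusted p = 0.571), and the HET values were 175 and 516 and then 126 and 124 CPM. Top2a, the topoisomerase of dividing cells, was 184 and 336 and then 137 and 452 CPM in KO, and 209 and 524 and then 131 and 94.2 CPM in HET. In both genotypes the libraries of a group differed: the summed cell cycle genes were 1248 and 3169 CPM in KO P3 and 1765 and 4065 CPM in HET E15, library 2 being the higher each time. The KO median was log2 0.60 without KO P3 library 1, -0.73 without KO P3 library 2, -0.20 without KO E15 library 1 and 0.41 without KO E15 library 2, so its direction rested on single libraries. The 17 HET calls became 2 without HET P3 library 1, 2 without HET P3 library 2, 27 without HET E15 library 1 and 1 without HET E15 library 2. Of 25 retinal progenitor genes 1 rose and 5 fell in KO cells, and none rose and 14 fell in HET cells, where the 14 became 7 without HET P3 library 2 and 7 without HET E15 library 2. In KO cells 14.4% of all genes rose and 11.1% fell. Fgf15, a growth factor of embryonic progenitors, dropped in KO from 204 and 405 to 17.5 and 56.0 CPM (log2 -3.04 ± 0.61, adjusted p = 0.00603), and Sfrp2, a secreted Wnt inhibitor, from 169 and 328 to 14.0 and 38.1 CPM (log2 -3.24 ± 0.51, adjusted p = 0.00174). The cyclin gene Ccnd1 overlapped between ages at 414 and 872 and 277 and 838 CPM (adjusted p = 0.849).

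**Figure D3:**
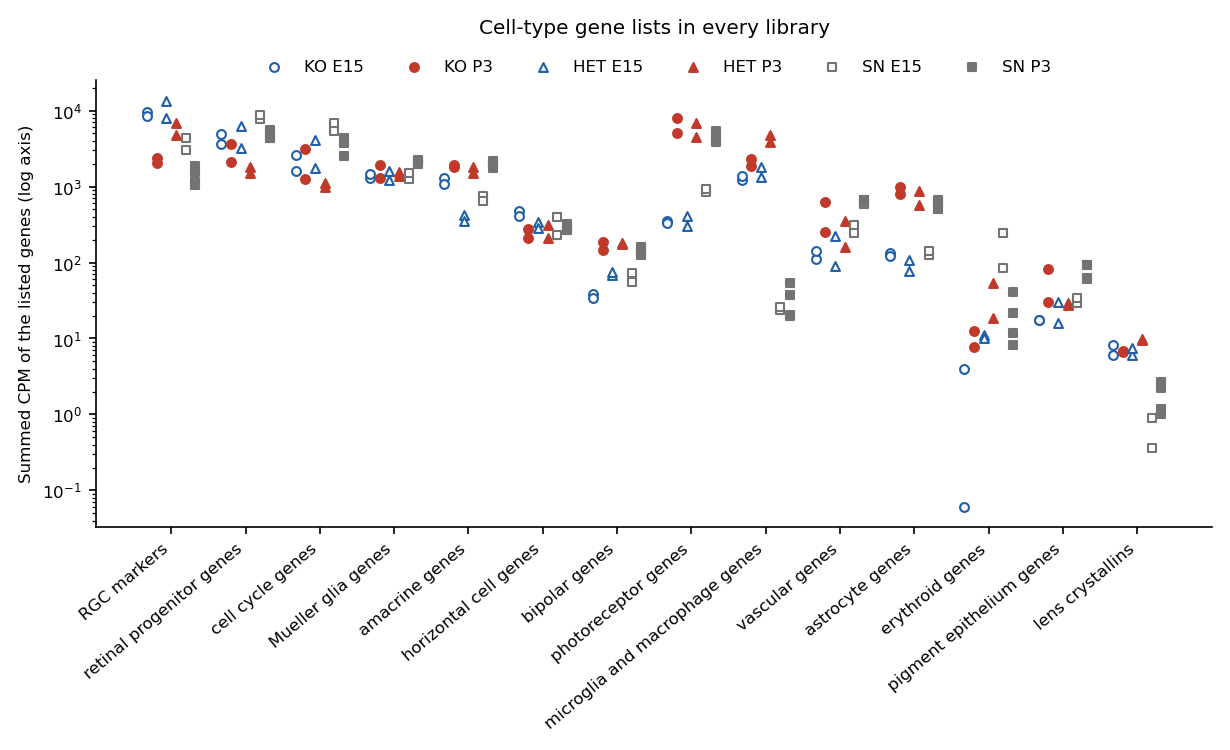
Summed CPM of 14 cell-type gene lists in each library, on a log axis: circles are KO, triangles HET and grey squares supernatant (SN) libraries, open at E15 and filled at P3. RGC markers fall and photoreceptor genes rise with age in all 3 fractions, and microglia genes are at most 53.9 CPM in the supernatants but at least 1210 CPM in the 8 AP-positive libraries drawn.

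Glial and vascular genes that passed the test mostly rose. Of 14 Mueller glia genes 5 rose and 1 fell, beside 14.4% and 11.1% over all genes. Rlbp1, the retinaldehyde-binding protein of these cells, went from 6.72 and 5.44 to 30.5 and 71.6 CPM (log2 3.08 ± 0.59, adjusted p = 0.00455), with KO P3 library 2 above library 1. Gfap, the intermediate filament of astrocytes, went from 1.43 and 0.703 to 70.7 and 91.6 CPM (log2 6.27 ± 0.69, adjusted p = 3.14e-04) and reached 4.14 to 7.50 CPM in the P3 supernatants, all below both KO P3 libraries. Of 9 astrocyte genes 4 rose and 1 fell. Of 14 vascular genes 10 rose and none fell, and their sum was 111 and 142 CPM in KO E15 and 251 and 626 CPM in KO P3. The 10 became 6 without KO P3 library 2 and 5 without KO E15 library 2. Cldn5, a tight junction protein of endothelium, went from 1.71 and 1.71 to 10.6 and 14.8 CPM (log2 2.91 ± 0.50, adjusted p = 0.00258). Of 20 microglia and macrophage genes 9 rose and none fell in KO cells (median log2 0.62), and 19 of 20 rose in HET cells (median log2 1.45), where 16.6% of all genes rose. For vascular and microglia genes 0 were lower at an unadjusted p under 0.05 and 0 were called lower in DESeq2. The 9 became 2 with all 18 retinal libraries in the fit, 1 at a minimum fold of 1.5, 2 without KO P3 library 1, 1 without KO E15 library 1 and 5 without KO E15 library 2. Lyz2, the lysozyme of myeloid cells, went from 15.0 and 7.88 to 49.1 and 34.0 CPM (log2 1.89 ± 0.28, adjusted p = 0.00123). Cx3cr1, the fractalkine receptor of microglia, went from 118 and 127 to 239.8 and 199 CPM (log2 0.86 ± 0.17, adjusted p = 0.00587), and that call was lost with all 18 retinal libraries in the fit (adjusted p = 0.248), at a minimum fold of 1.5 (0.132) and without KO E15 library 1 (0.051). The part of microglial RNA in the other results was not tested.

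Ion channel genes moved in both directions. Of 31 potassium channel genes 15 rose and 2 fell (median log2 0.72), and 9 rose without KO E15 library 2. Kcna1, a delayed rectifier of axons, rose from 0.602 and 0.214 to 5.14 and 6.67 CPM (log2 3.87 ± 0.52, adjusted p = 7.88e-04). Kcnh2, an ether-a-go-go-related channel, fell from 95.0 and 87.5 to 23.3 and 26.0 CPM (log2 -1.87 ± 0.24, adjusted p = 5.97e-04). Of 9 sodium channel genes 1 rose and 3 fell, beside 14.4% and 11.1% over all genes. Scn1a rose from 4.72 and 3.02 to 15.7 and 14.3 CPM (log2 1.97 ± 0.26, adjusted p = 6.52e-04), while the embryonic channel gene Scn3a fell from 170.4 and 125 to 35.9 and 39.8 CPM (log2 -1.95 ± 0.26, adjusted p = 7.37e-04) and Scn9a from 93.5 and 65.3 to 8.76 and 18.5 CPM (log2 -2.53 ± 0.43, adjusted p = 0.00247). Scn2a1 and Scn8a, the channels of the axon initial segment, did not pass the test (adjusted p = 0.761 and 0.673). Of 17 calcium channel genes 4 rose and 7 fell (median log2 -0.75). Cacna1h, a T-type channel, rose from 60.6 and 53.1 to 283 and 189.8 CPM (log2 2.08 ± 0.21, adjusted p = 2.16e-04), and Cacna1d, an L-type channel, fell from 72.7 and 65.0 to 29.1 and 29.1 CPM (log2 -1.22 ± 0.17, adjusted p = 9.13e-04). Of 15 ion pumps and chloride transporters 9 rose and 1 fell, including Slc12a5, the chloride exporter KCC2 of mature neurons, from 30.1 and 13.1 to 72.7 and 72.7 CPM (log2 1.77 ± 0.32, adjusted p = 0.00332).

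Synaptic genes changed in both directions. Of 36 genes of synaptic vesicles and release 17 rose and 3 fell (median log2 0.70), and 11 rose without KO E15 library 2. Of 20 glutamate receptor genes 9 rose and 2 fell (median log2 0.82), and of 23 genes of GABA, glycine and nicotinic receptors 11 rose and 3 fell (median log2 1.07). All genes tested had 14.4% higher and 11.1% lower, so the shares that fell in these lists were near that of all genes. Snap25, a membrane fusion protein, went from 234 and 157 to 615 and 572 CPM (log2 1.62 ± 0.27, adjusted p = 0.00229), and Syp, the vesicle protein synaptophysin, from 149 and 121 to 723 and 499.8 CPM (adjusted p = 2.65e-04). Both were higher in each P3 library than in either E15 library. Grin2b, an NMDA receptor subunit, rose from 2.12 and 1.31 to 25.2 and 24.7 CPM (log2 3.88 ± 0.36, adjusted p = 1.37e-04). Gria2, the AMPA receptor subunit that limits calcium entry, fell from 182 and 155 to 53.4 and 69.4 CPM (log2 -1.44 ± 0.27, adjusted p = 0.00427). The nicotinic receptor genes moved in opposite directions: Chrna3 fell from 471 and 446 to 59.9 and 50.2 CPM (log2 -3.04 ± 0.23, adjusted p = 6.22e-05) and Chrna4 from 363 and 282 to 54.0 and 64.2 CPM (log2 -2.43 ± 0.28, adjusted p = 3.63e-04), while Chrna6 rose from 0.159 and 0.0917 to 28.5 and 42.2 CPM (log2 8.12 ± 0.72, adjusted p = 1.25e-04). Chrna6 reached 111 and 148 CPM in HET P3, above both KO P3 libraries. Of 26 postsynaptic scaffold and adhesion genes 9 rose and 4 fell, and with KO P3 library 1, KO P3 library 2, KO E15 library 1 or KO E15 library 2 left out 4, 3, 5 and 3 rose and 3, 4, 3 and 3 fell. Among them Camk2b, a calmodulin-dependent kinase, rose from 13.6 and 5.44 to 85.6 and 76.1 CPM (log2 3.11 ± 0.35, adjusted p = 3.42e-04).

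Guidance genes fell more often than they rose. Over all genes 14.4% rose and 11.1% fell. Of 30 axon guidance receptors 5 rose and 10 fell (median log2 -0.23), and of 30 guidance ligands 4 rose and 13 fell (median log2 -0.65). The shares that rose were thus near that of all genes. The 13 became 8 without KO P3 library 2 and 7 without KO E15 library 1. Dcc, the netrin receptor that steers RGC axons to the optic disc, dropped from 417 and 421 to 41.5 and 35.4 CPM (log2 -3.43 ± 0.16, adjusted p = 6.25e-06). Its ligand gene Ntn1 dropped from 35.0 and 32.7 to 0.757 and 1.34 CPM (log2 -4.99 ± 0.60, adjusted p = 4.50e-04). Ephb1, the ephrin receptor of axons that stay on the same side at the chiasm, dropped from 80.4 and 59.6 to 18.9 and 26.1 CPM (log2 -1.62 ± 0.25, adjusted p = 0.0015). None of the 3 overlapped between ages. Robo3, a divergent member of the Robo receptor family, rose from 3.55 and 4.46 to 120.2 and 72.7 CPM (log2 4.61 ± 0.39, adjusted p = 1.10e-04), and Epha8 from 34.5 and 26.8 to 467 and 331 CPM (log2 3.73 ± 0.33, adjusted p = 1.27e-04). Robo2, the Slit receptor of RGC axons, was 367 and 311 and 279 and 277 CPM (adjusted p = 0.408). Adhesion and recognition genes went both ways, with 16 of 51 higher and 18 lower (10 lower without KO P3 library 1 and 11 without KO E15 library 1). Alcam, an immunoglobulin adhesion molecule, rose from 2.63 and 2.87 to 24.3 and 23.3 CPM (log2 3.13 ± 0.17, adjusted p = 8.45e-06), and Tenm3, a teneurin of matching pre- and postsynaptic neurons, fell from 539 and 537 to 76.8 and 90.2 CPM (log2 -2.67 ± 0.25, adjusted p = 1.67e-04).

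Developmental timing genes changed in both directions, with 7 of 18 higher and 5 lower (4 higher without KO E15 library 1). Over all genes 14.4% were higher and 11.1% lower. Lin28b, a blocker of let-7 maturation, fell from 24.8 and 26.4 to 1.49 and 2.95 CPM (log2 -3.51 ± 0.46, adjusted p = 6.78e-04), and so did Trim71, a let-7 target, from 30.5 and 32.8 to 2.11 and 3.08 CPM (log2 -3.59 ± 0.26, adjusted p = 4.81e-05). The nuclear factor I genes, which act late in neural development, rose: Nfib went from 19.8 and 14.3 to 215 and 226 CPM (log2 3.71 ± 0.41, adjusted p = 3.26e-04) and Nfic from 15.2 and 13.8 to 77.8 and 71.0 CPM (log2 2.38 ± 0.12, adjusted p = 8.03e-06). Of 22 neuronal RNA-binding and splicing regulators 1 rose and 7 fell, led by Khdrbs2, from 89.9 and 85.1 to 8.87 and 12.3 CPM (log2 -3.03 ± 0.26, adjusted p = 1.02e-04), and Elavl4, the neuronal protein HuD, from 426 and 350.4 to 79.0 and 90.6 CPM (log2 -2.18 ± 0.24, adjusted p = 3.49e-04). Of 15 DNA methylation and Polycomb genes 5 rose (0 without KO P3 library 1, 3 without KO P3 library 2 and 1 without either KO E15 library), and 1, the de novo methyltransferase gene Dnmt3b, fell from 54.0 and 67.3 to 9.76 and 12.1 CPM (log2 -2.45 ± 0.19, adjusted p = 6.22e-05). Of 20 cell death and axon injury genes 1 rose and 3 fell, beside 14.4% and 11.1% over all genes. Xiap, an inhibitor of caspases, rose from 95.7 and 103 to 244 and 239.8 CPM (adjusted p = 2.59e-04), and Gadd45a, a stress-induced gene, fell from 155 and 213 to 34.8 and 27.6 CPM (log2 -2.54 ± 0.30, adjusted p = 4.08e-04).

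The same age comparison in HET cells, from other libraries, asked which changes are also seen with 1 intact allele. In HET 2760 genes (16.6%) rose and 2049 (12.3%) fell. The counts were 1931 and 973 without HET P3 library 1, 1789 and 1060 without HET P3 library 2, 2218 and 1779 without HET E15 library 1, and 2024 and 1315 without HET E15 library 2. Of the genes that rose in KO, 1727 also rose in HET, 72.1% of the KO list and 62.6% of the HET list, and 2 fell. Of those that fell in KO, 1033 also fell in HET, 56.0% of the KO list and 50.4% of the HET list, and 10 rose. RGC markers had a median log2 change of -0.67 in HET (3 rose and 7 fell of 18) beside -1.48 in KO, and the change differed past the threshold for none of the 18 in edgeR, with 2 higher and 6 lower in KO at an unadjusted p under 0.05, and for 2 in DESeq2. The 7 became 3 without HET P3 library 1.

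**Figure D4:**
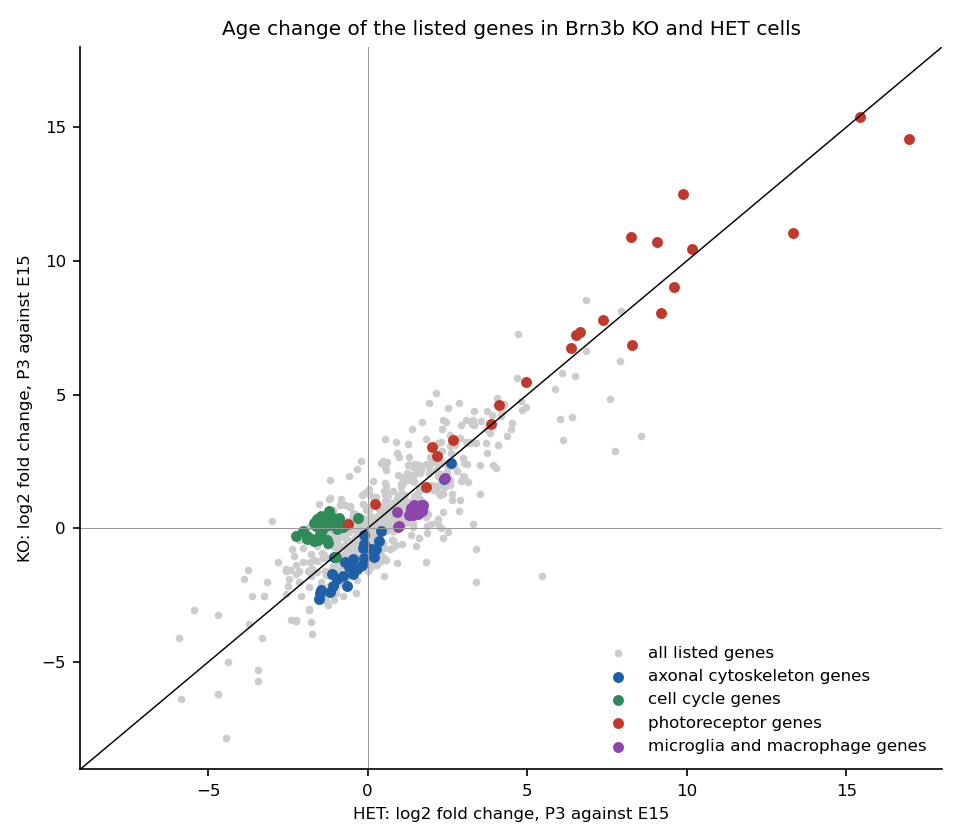
Log2 fold change from E15 to P3 of every tested listed gene in HET (horizontal) and KO cells (vertical), with the line of equal change. Axonal cytoskeleton and cell cycle genes are coloured beside photoreceptor and microglia genes: photoreceptor genes lie near the line at high values in both genotypes, and cell cycle genes lie near 0 in KO and mostly below 0 in HET.

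The difference between the KO and the HET change passed the threshold for 32 genes, 1 higher (0.006%) and 31 lower (0.186%) in KO. KO E15 stood apart from the other groups in most of them. In 22 of the 32 both KO E15 libraries lay above all 6 other Brn3b AP-positive libraries, and in 29 of the 31 lower genes both KO E15 libraries were above both HET E15 libraries. In 24 of the 31 both KO P3 libraries were below both HET P3 libraries. These counts describe genes picked by the difference itself, and a negative difference favours such an order of the groups. The same shares over all genes were not counted, so the counts are no separate evidence about KO E15. By direction, 11 of the 32 fell in KO without a call in HET, 7 fell in KO and rose in HET, 4 fell in both, 8 rose in HET without a call in KO, and 1 rose in both. Adarb2, a member of the RNA deaminase family without known activity, was the 1 gene with the opposite sign: it was 7.17 and 5.22 and then 9.33 and 9.94 CPM in KO, and 39.3 and 28.9 and then 7.93 and 5.30 CPM in HET (difference log2 3.02 ± 0.47, adjusted p = 0.0448).

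Th was 12.5 and 10.9 CPM in HET E15 and 0.467 and 0.605 CPM in HET P3, so the KO fall exceeded the HET fall by log2 -3.40 ± 0.33 (adjusted p = 0.00695). The E15 supernatants differed in the same way by genotype, with 28.6 and 0.53 CPM in KO and HET. Slc32a1, the vesicular transporter of GABA and glycine, was 45.4 and 43.3 and then 25.6 and 26.1 CPM in KO, which did not pass the test (adjusted p = 0.0804) but did in DESeq2 (0.0495), with only the groups compared (0.0151) and without the library of conflicting labels (0.0172). It rose in HET from 1.64 and 1.29 to 17.7 and 13.2 CPM (difference log2 -4.16 ± 0.43, adjusted p = 0.0102). Dlx1 was 41.0 and 39.0 CPM in HET E15 and 3.27 and 4.03 CPM in HET P3 (difference log2 -1.84 ± 0.20, adjusted p = 0.0102). Among the Brn3b AP-positive libraries all 3 were highest in the 2 of KO E15. Csmd3, a large membrane protein of neurons, fell in KO from 26.3 and 26.7 to 4.52 and 2.66 CPM and rose in HET from 4.74 and 4.86 to 9.77 and 16.8 CPM (difference log2 -4.34 ± 0.48, adjusted p = 0.0125). Acvr1c fell in both, in HET from 13.7 and 10.8 to 0.412 and 0.666 CPM (difference log2 -3.21 ± 0.47, adjusted p = 0.0399).

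Other genes rose in HET cells without the same rise in KO cells. Cntn1, a contactin of axons, was 209.9 and 215 and then 172 and 195 CPM in KO, but 99.4 and 87.2 and then 306 and 365 CPM in HET (difference log2 -2.05 ± 0.19, adjusted p = 0.00695). Plcb1, a phospholipase C, was 36.5 and 31.2 and then 22.4 and 29.2 CPM in KO, and 15.4 and 9.26 and then 66.7 and 101 CPM in HET (difference log2 -3.14 ± 0.38, adjusted p = 0.0175). For both genes the 2 HET P3 libraries were above every KO P3 library. Pcdh10, a protocadherin, rose in both genotypes, from 34.7 and 30.6 to 72.6 and 85.3 CPM in KO and from 23.9 and 15.6 to 185 and 267 CPM in HET (difference log2 -2.23 ± 0.32, adjusted p = 0.0345). Cntn4, another contactin, fell in KO from 35.9 and 29.5 to 10.7 and 16.4 CPM (adjusted p = 0.00953, but 0.0717 without KO P3 library 1 and 0.0584 without KO E15 library 1) and rose in HET from 7.18 and 5.17 to 16.8 and 27.1 CPM (difference log2 -3.09 ± 0.40, adjusted p = 0.0267). Cacna1d differed more by its fall in KO (log2 -1.22) than by a rise in HET. It was 35.9 and 29.5 CPM in HET E15 and 37.3 and 50.1 CPM in HET P3 (difference log2 -1.65 ± 0.24, adjusted p = 0.0381). Adhesion and recognition genes held 5 of the 31 lower genes, out of 51 tested, beside 0.186% lower over all genes. Theirs was the longest list, and the lists were chosen with earlier results of these data known.

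Many of these calls depended on single libraries. Left-out libraries changed the 31 lower genes to 6 without KO P3 library 1, 12 without KO P3 library 2, 1 without KO E15 library 1, 9 without KO E15 library 2, 65 without HET E15 library 1, 6 without HET E15 library 2, 3 without HET P3 library 2 and 34 without HET P3 library 1. Cntn1 passed under 15 of 16 alternatives, Th and Slc32a1 under 13, Csmd3 under 12, Plcb1 under 11 and Dlx1 under 10, and all 6 kept their sign. Cntn4 passed under 8, Pcdh10 and Cacna1d under 6, and Acvr1c and Adarb2 under 5 of the 16. None of these 11 genes passed without KO E15 library 1. With that library left out, the adjusted p was 0.0517 for Th, Slc32a1, Cntn1 and Csmd3 and 0.0662 for Plcb1 and Dlx1. The Th call was also lost with all 18 retinal libraries in the fit (0.399) and without HET P3 library 2 (0.0757), and the Dlx1 call with all 18 (0.0939).

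**Figure D5:**
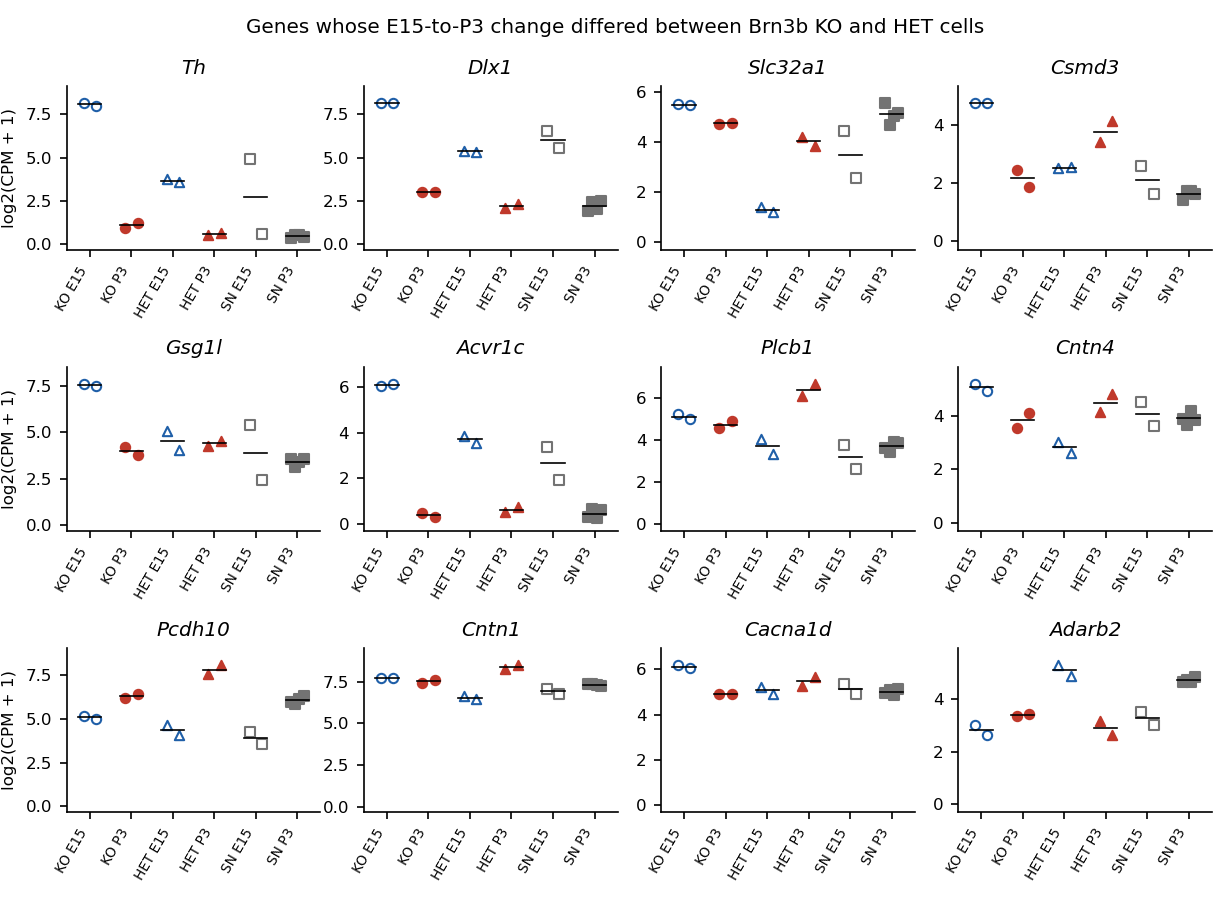
Levels in every library, on a log2(CPM + 1) axis, of 12 genes whose change from E15 to P3 differed between KO and HET cells, with bars at the group means. Circles are KO, triangles HET and squares supernatant (SN) libraries, open at E15 and filled at P3. Th, Dlx1, Gsg1l and Acvr1c are highest in the 2 KO E15 libraries, and Plcb1 and Pcdh10 in the 2 HET P3 libraries.

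A last comparison set the KO change against that of the unbound cells, to set changes on the beads beside those in the rest of the retina. In the supernatant 2653 of 16954 genes (15.6%) rose and 2963 (17.5%) fell. The KO change was higher than the supernatant change for 400 genes (2.36%) and lower for 503 (2.97%). Pax6, a homeodomain factor of progenitors, amacrine cells and RGCs, fell on the beads from 1273 and 1176 to 382 and 422 CPM and was 857 and 786 CPM in the E15 and 488 to 633 CPM in the P3 supernatants (difference log2 -1.01 ± 0.17, adjusted p = 0.0117). Gad2 was 77.6 and 85.5 CPM in the E15 and 60.2 to 103 CPM in the P3 supernatants, overlapping between ages, where the KO level fell (difference log2 -2.11 ± 0.28, adjusted p = 0.00387). Gria2 was 61.6 and 37.1 and 79.3 to 90.8 CPM (difference log2 -2.21 ± 0.36, adjusted p = 0.0109). Mfng, a fringe enzyme that modifies Notch, fell from 135 and 159 to 55.8 and 58.0 CPM on the beads and was 61.0 and 38.2 and then 66.0 to 89.5 CPM in supernatant (difference log2 -2.03 ± 0.27, adjusted p = 0.00393). Trank1, an ankyrin-repeat gene, fell from 109 and 87.5 to 16.3 and 16.0 CPM on the beads and was 13.4 and 5.61 and then 23.5 to 32.4 CPM in supernatant (difference log2 -4.17 ± 0.50, adjusted p = 0.00285). In these 5 genes the KO E15 libraries were the highest of all retinal AP-positive KO and supernatant libraries.

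Slc17a6 went the other way. It rose on the KO beads while the supernatants stayed at 24.8 and 33.6 CPM at E15 and 15.8 to 36.6 CPM at P3, a difference of log2 2.55 ± 0.54 (adjusted p = 0.0223). Irx6, an Iroquois factor of bipolar cells and some RGCs, rose from 1.46 and 2.63 to 10.1 and 12.2 CPM in KO, while the supernatants held 11.5 and 6.14 and then 5.93 to 11.4 CPM (difference log2 2.69 ± 0.55, adjusted p = 0.0195), and HET cells were at 35.5 and 28.6 CPM already at E15. Adora1, an adenosine receptor gene, rose from 0.0951 and 0.367 to 12.1 and 14.1 CPM in KO (difference log2 3.32 ± 0.59, adjusted p = 0.0141). Of the cell-type lists, photoreceptor genes had 4 of 23 higher and none lower, amacrine genes 3 of 24 higher and 2 lower, and cell cycle genes none of 32 in either direction (2 higher at an unadjusted p under 0.05, and 1 called higher in DESeq2). Beside them, 2.36% of all genes were higher and 2.97% lower. The 2 E15 supernatants came from different genotypes: 844 genes were higher and 1449 lower without the KO E15 supernatant, and 39 and 64 without the HET E15 supernatant. The counts were 67 and 101 without KO P3 library 1, 71 and 117 without KO P3 library 2, 74 and 84 without KO E15 library 1, 49 and 118 without KO E15 library 2, 255 and 481 without the KO P3 supernatant, and 206 and 417 without the HET P3 supernatant. The Slc17a6 call was lost without KO P3 library 2, KO E15 library 2 or the HET E15 supernatant (adjusted p = 0.0802, 0.0937 and 0.101), the Irx6 call without KO P3 library 2 or KO E15 library 1 (0.0639 and 0.0933), and the Adora1 call without KO E15 library 1 or the HET E15 supernatant (0.0553 and 0.0615). With only the supernatants of Brn3b retinas, Slc17a6 and Irx6 also missed the threshold (0.0551 and 0.0705). The calls of Pax6, Gad2, Gria2, Mfng and Trank1 held under every alternative run.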

How the data were processed

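The deposited table holds estimated counts for 88198 Ensembl transcripts of 27 libraries. The submitters' processing notes name Trimmomatic 0.32, Bowtie2 2.2.1, eXpress 1.3.1 and the build GRCm38.p3, with no role or order. Whether counting used strand is not given in the sources used here, so overlapping and antisense genes cannot be told apart, and near-identical copies may share reads. From these expected counts, which the authors deposited without normalization, transcripts were summed per gene ID (30735 genes) and rounded. Gene symbols came from the deposited table, and 27 that had been turned into dates were restored from the reference annotation.

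Depth was 28905675 to 37394655 estimated counts in the 18 retinal libraries. Genes were filtered with filterByExpr (minimum count 10), scaled by TMM and tested with edgeR 4.0.16 (limma 3.58.1, R 4.3.3) with its quasi-likelihood test, two-sided, with Benjamini-Hochberg adjustment over all genes tested. The KO, HET and KO-minus-HET changes came from 1 fit to the 12 AP-positive libraries in 6 groups (16673 genes), and the supernatant comparison from a fit to 18 libraries (16954 genes) in which supernatants were grouped by age over genotypes. Standard errors are the fold change divided by the root of its F statistic. Lower bounds allow 3 counts over the E15 group, and counting intervals are exact at the 95% level and cover counting error only. The fit was also run on simulated counts in which all groups shared the same means, apart from a small set of genes changed in KO P3. Those changes were fewer and smaller than many seen here, so the run does not show how the fit performs on these data.

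Alternatives were DESeq2 1.42.0, its size factors, no filter, a minimum fold of 1.5, other sets of libraries in the fit, the replicate number as a block, and each library left out in turn. The members and the 35 gene lists (711 distinct genes) were chosen with earlier results of these data known. Genes were named by rule: the 3 Brn3 genes, the 15 largest falls and rises among called KO genes of at least 10 CPM whose ages did not overlap, the 10 largest in each direction for each difference of changes, list members fixed as anchors, and up to 5 members of each list by adjusted p (3 for the KO-minus-HET difference). The 9 brain libraries were not used here, and a few genes are not reported here.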

Additional observations from a re-analysis of the deposited data

Results flagged for a closer look

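In the KO cells the age change differed from the HET age change, by the test of the difference itself in edgeR, for these genes named in the text. The log2 difference, KO minus HET, was -3.40 for Th, -4.16 for the inhibitory transporter gene Slc32a1, -1.84 for Dlx1, -4.34 for Csmd3, -3.21 for Acvr1c and -2.80 for Trank1. Gsg1l, which encodes a protein that binds AMPA receptors, had a difference of -3.36: it went from 194 and 183 to 17.8 and 12.8 CPM in KO. The difference was -2.05 for Cntn1, -3.09 for Cntn4, -3.14 for Plcb1, -2.23 for Pcdh10 and -1.65 for Cacna1d. Adarb2 had the one positive value, 3.02. Of 16 alternatives Cntn1 passed 15 and Acvr1c and Adarb2 passed 5, the highest and lowest counts among these 13 genes.

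The KO change also differed from the change of the unbound retinal cells. KO was lower for Trank1 (-4.17), Acvr1c (-3.69), the glutamate receptor gene Gria2 (-2.21), the netrin receptor gene Dcc (-2.14), Csmd3 (-2.14), Gad2 (-2.11), Mfng (-2.03), the axonal adhesion gene Cntn2 (-1.96), Tenm3 (-1.85) and the potassium channel gene Kcnh2 (-1.82). It was also lower for Dlx2 (-1.67), the nicotinic receptor gene Chrna3 (-1.43), the embryonic sodium channel gene Scn3a (-1.38), Dnmt3b (-1.23), Cacna1d (-1.12) and Pax6 (-1.01). KO was higher for the adenosine receptor gene Adora1 (3.32), the cone opsin gene Opn1sw (3.31), Irx6 (2.69), the synuclein gene Sncg (2.64), the glutamate transporter gene Slc17a6 (2.55), the endothelial claudin gene Cldn5 (2.45), Neurod4 (2.12) and Xiap (0.79). Trank1, Gad2, Gria2, Mfng and Pax6 passed all 13 alternatives, whereas Cldn5, Neurod4 and Scn3a passed 4. With 2 libraries in a group the check for a single outlying sample could not be run.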

How the results depend on the processing

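No called gene named in the text turned its direction under any alternative, whereas the median of the cell cycle genes and the uncalled genes Ccnd1, Mki67, Neurog2, Rbpms, Scn2a1 and Top2a changed sign when single libraries were left out. At a minimum fold of 1.5, 1183 genes rose and 673 fell in KO, 1413 rose and 522 fell in HET, and 0 were higher and 8 lower in KO minus HET. With only the groups compared, HET gave 1833 and 1116 and KO minus HET 0 and 6. DESeq2 gave 93 and 242 for KO minus HET and 1105 and 982 for KO minus supernatant. Without a filter KO minus HET gave 17 and 84, and with all 18 libraries it gave 7 higher. With only Brn3b supernatants KO minus supernatant gave 60 and 144. Without the Brn3a library of conflicting labels, an alternative chosen after seeing the data, KO minus HET gave 3 and 18.

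Replicate numbers are not said to pair libraries. The deviations of same-numbered libraries from their group means correlated between ages with r = 0.154 in KO and r = -0.221 in HET. Both values lay inside the range over any pair of AP-positive groups, -0.233 to 0.371. With the number as a replicate block, KO minus HET gave 0 and 12 and KO minus supernatant 262 higher.

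Leaving out 1 library gave 1269 to 1651 higher and 937 to 1145 lower genes in KO, 1789 to 2218 and 973 to 1779 in HET, 0 to 6 and 1 to 65 for KO minus HET, and 39 to 844 and 64 to 1449 for KO minus supernatant. At an unadjusted p under 0.05 the KO-minus-HET counts were 804 and 1158. The cause of these shifts was not tested. With 2 libraries a group, a missed threshold says little about small changes.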

Other observations

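Receptors for trophic factors changed in both directions in the KO cells, with 3 of 15 higher and 3 lower (14.4% and 11.1% over all genes). Lifr, a receptor for leukemia inhibitory factor, rose from 26.9 and 23.7 to 112 and 89.5 CPM (log2 2.01 ± 0.25, adjusted p = 5.14e-04 in edgeR's quasi-likelihood test). Ret, the signalling receptor for ligands of the GDNF family, fell from 205 and 157 to 57.4 and 63.0 CPM (log2 -1.57 ± 0.28, adjusted p = 0.00353). Neither gene overlapped between ages. The 3 lower genes became 1 without KO P3 library 2, KO E15 library 1 or KO E15 library 2.

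Of 8 horizontal cell genes 0 were higher and 2 lower in edgeR (1 higher and 3 lower at an unadjusted p under 0.05, and 1 and 2 in DESeq2). All genes had 14.4% higher and 11.1% lower in edgeR. Beside Onecut2, Onecut1 fell from 49.4 and 33.3 to 9.98 and 14.2 CPM (log2 -1.76 ± 0.35, adjusted p = 0.00569), and that call was lost without KO P3 library 1. Prox1, a homeodomain factor of horizontal and amacrine cells, was 84.6 and 85.0 CPM in KO E15 and 101 and 129.7 CPM in KO P3 (adjusted p = 0.331).

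For the counts in this paragraph, 14.4% of all genes were higher and 11.1% lower in KO P3. Genes of tissues that a dissected retina can carry along were low. Pigment epithelium genes summed to 17.3 and 17.6 CPM in KO E15 and 30.2 and 82.3 CPM in KO P3, with 4 of 8 higher, and 2 without KO P3 library 2 or without either KO E15 library. Erythroid genes summed to 3.93 and 0.0611 and then 7.82 and 12.6 CPM, with 1 of 5 higher, and lens crystallins to 8.12 and 6.05 and then 6.82 and 6.70 CPM, with 0 of 5 called in edgeR or DESeq2 and 0 at an unadjusted p under 0.05. Genes that dissociation can induce summed to 1378 and 1696 and then 2065 and 1585 CPM, so the ages overlapped. Of the 15 tested 4 rose and 1 fell, and 1 rose without KO P3 library 1, 2 without KO P3 library 2, 0 without KO E15 library 1 and 1 without KO E15 library 2.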
